A study of Mus musculus with 12 samples.

Results

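Gene expression in dorsal epidermis at postnatal day 36 (P36) was compared between 3 control libraries and 3 libraries labelled DKO, the double knockout of the vitamin D receptor gene Vdr and of Med1. These are 6 of the 12 libraries of the series, whose other 6 are the same genotypes at 6 months. Both genotypes were on a C57BL/6 background and carried floxed alleles of both genes (VDR fl/fl, Med1 fl/fl). The control had no K14 Cre (Cre-/-), and the DKO carried 1 copy (Cre+/-), so that recombination was directed to cells in which the keratin 14 promoter is or has been active. These are the basal keratinocytes and their descendants in epidermis and follicles, and not dermal, immune or pigment cells. The skin was heated on its dermal side at 60 °C for 1 min, the epidermis was taken off with forceps and scalpel, and total RNA depleted of ribosomal RNA was read as 50-base single ends on a BGISEQ-500. Nothing in the labels says whether replicates came from separate animals, so the p-values below measure only the spread between these samples. All genes with at least 1 FPKM (fragments per kilobase of gene and per unit of library size) in at least 3 of the 6 libraries were compared, which was 12660 of the 19392 genes with values.

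The vitamin D receptor is a nuclear receptor that binds DNA together with a retinoid X receptor and recruits coactivators. Med1 is the subunit through which the Mediator complex, which links transcription factors to RNA polymerase II, contacts nuclear receptors. In keratinocytes the receptor is known for its part in the hair cycle and in differentiation. Dorsal follicles of young mice pass together through phases of growth and rest, and the hair matrix, the inner root sheath and the hair shaft with its keratins are present in full only in the growth phase.

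The P36 libraries were alike in yield, with FPKM sums of 513455 to 554382 and 12104 to 12760 genes at 1 FPKM or more. Across genes, which are not independent replicates, Pearson's r was 0.98 to 0.988 within a group and 0.934 to 0.951 between groups. No 2 libraries shared more than 0.56% of their values, so all 6 hold data of their own. The number of reads is unknown, so no counting interval can be given. A log2 fold change below is the libraries labelled DKO minus control on the log2(FPKM + 1) scale, which understates changes of low genes. A gene is said to have risen or fallen where limma's test, adjusted over the 12660 genes by the Benjamini-Hochberg method, gave p below 0.05. Where 3 values follow each other, they are those of libraries 1, 2 and 3 of a group. A summed level of a list takes in all its genes with values, also those too low to be tested.

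The Vdr messenger RNA of the libraries labelled DKO did not lie below that of control. Its level was 65.8, 65.5 and 72.8 FPKM in control and at 87.3, 86.7 and 76.5 FPKM in the libraries labelled DKO. The 2 groups did not overlap, and the difference of 0.29 (log2, SE 0.09) missed the threshold (limma adjusted p = 0.0573). An FPKM sums over a whole gene and does not resolve a deleted exon, so the value is no check of recombination, and the directions given below rest on the label. Med1 fell from 13.9, 14.2 and 13.2 FPKM in control to 10.4, 8.78 and 8.2 FPKM (log2 fold change −0.55, SE 0.11, limma adjusted p = 0.0083). Every control library lay above every library labelled DKO. The plot of levels by library shows both genes beside others described below.

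**Figure D1:**
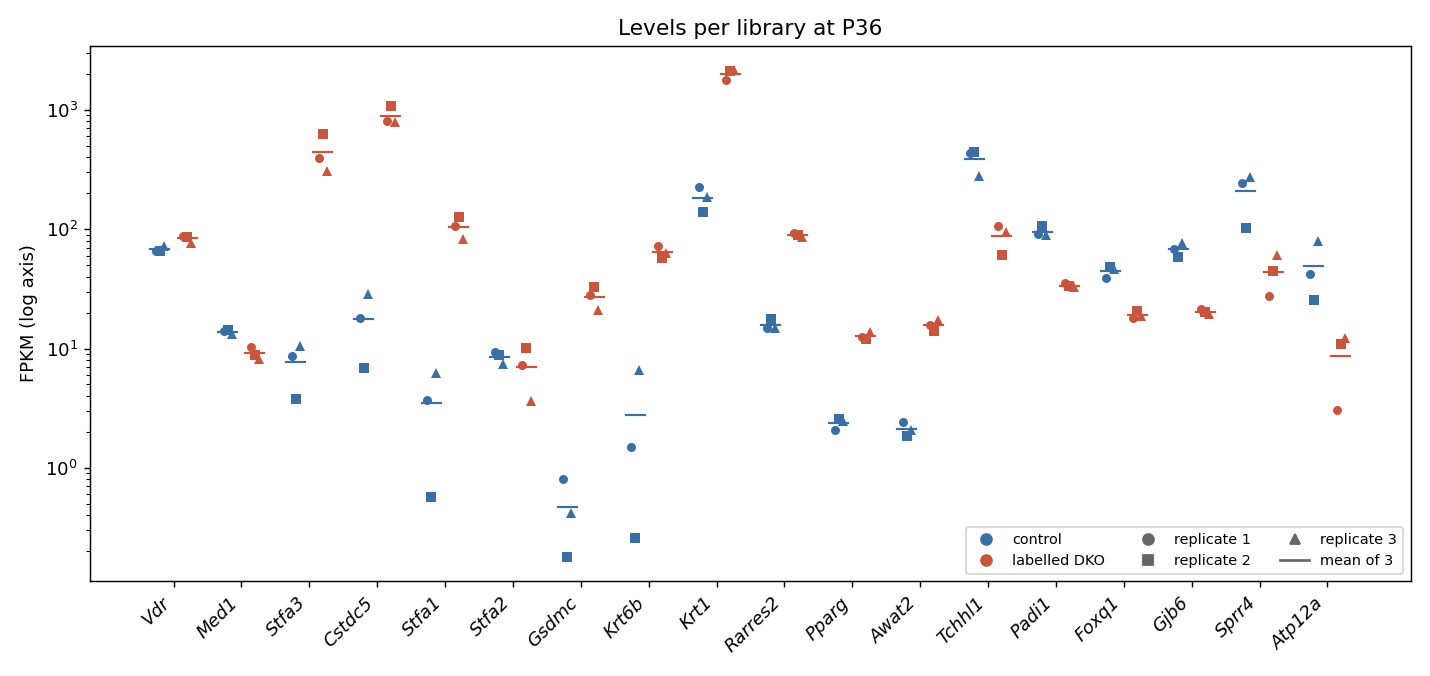
FPKM of 18 genes in each of the 6 libraries at P36, on a log axis, with control in blue, libraries labelled DKO in red, marker shapes for replicates 1 to 3 and a line at the mean of each group. Vdr lies between 65.5 and 87.3 FPKM in all libraries and Med1 between 8.2 and 14.2, while Stfa3 and Gsdmc are separated by wide gaps.

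Few partners of Vdr and Med1 were called. Of 9 fitted genes of the receptor, its partners and the vitamin D enzymes, none passed limma's adjusted threshold and 1, Vdr, was higher at an unadjusted p below 0.05. Rxra, which encodes the retinoid X receptor alpha that pairs with Vdr, stood at 46.6, 49.1 and 45.7 FPKM in control and at 45.04, 54.2 and 60.9 in the libraries labelled DKO, which overlap. Trpv6, an epithelial calcium channel, stood at 8.84, 8.61 and 31.1 against 6.21, 7.0 and 6.61 FPKM (limma adjusted p = 0.158), with control 3 far above the other 5 libraries. Cyp24a1, which encodes the enzyme that degrades the active hormone, was too low to be fitted, with at most 0.08 FPKM in any library. Of 32 fitted Mediator subunits, 1 rose and 2 fell, where 23.3% of all fitted genes were called (18% higher and 5.32% lower). Beside Med1 these were Med21, from 20.8, 18.4 and 21.1 to 28.2, 26.5 and 24.7 FPKM, and Med27, from 16.9, 20.2 and 18.2 to 12.5, 14.9 and 13.2 FPKM. Med21 lost its call without control 1 (limma adjusted p = 0.0558), control 2 (0.0796), DKO 1 (0.0601) or DKO 2 (0.0727), and Med27 without control 2 (0.0881), control 3 (0.0532), DKO 1 (0.0662) or DKO 3 (0.0861). Only 1 Mediator subunit was called without control 2 or without DKO 1. Under median-ratio scaling of the libraries 4 subunits fell and Med21 was no longer called. Of 15 nuclear receptor coactivators and corepressors none passed limma's adjusted threshold and 1 was higher at an unadjusted p below 0.05.

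In all, 2949 genes were called, 2275 higher and 674 lower in the libraries labelled DKO, and the log2 fold change was at least 1 in size for 726 of the higher and 191 of the lower ones. The lower calls numbered 406 without control 1, 386 without DKO 2 and 410 without DKO 3. Median-ratio scaling gave 1608 higher and 1111 lower calls, so that 59.1% instead of 77.1% of calls were higher. With it the median over all genes was −0.03 in place of 0.09, and the list medians below can be read against 0.09. Groups did not overlap for 39.6% of the fitted genes. The genes of largest change were named only where this held, and most list members for their small p. That their groups lie apart, where said below, therefore follows largely from the choice. Of the fitted genes, 292 reached 1 FPKM only in libraries labelled DKO and 37 only in control, and these had to differ. Of the genes named in the text these include Gsdmc, Serpinb3a, Cxcl5, Mpeg1, Mmp9 and Cox6a2, and Fgf18 and Krt7 on the control side.

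The largest rises were in stefins, small proline-rich proteins, acute phase genes, a wound keratin and muscle genes. Gsdmc, a pore-forming protein of the gasdermin family, rose from 0.8, 0.18 and 0.42 to 27.9, 32.7 and 21.0 FPKM (log2 fold change 4.27, SE 0.2, limma adjusted p = 0.000131). Saa3, an acute phase serum amyloid, rose from 4.31, 2.33 and 4.8 to 145, 249 and 64.6 FPKM, and Hp, haptoglobin, from 18.1, 7.8 and 23.9 to 474, 278 and 247 FPKM. The lowest library labelled DKO lay far above the highest control library for each of the 3. Groups without overlap were a condition for naming them. Among the largest falls were keratin-associated proteins and Gng13, a G protein gamma subunit, from 12.7, 18.2 and 18.6 to 2.8, 3.78 and 1.67 FPKM (log2 fold change −2.25, SE 0.23, limma adjusted p = 0.000733). Atp12a, a proton and potassium pump, fell from 41.9, 25.3 and 78.8 to 3.08, 10.9 and 12.1 FPKM. Car6, a secreted carbonic anhydrase, fell from 126, 121 and 482 to 15.6, 48.2 and 48.6 FPKM, and its control libraries varied widely, with control 3 far above the other 2. Serpina3b, a serine protease inhibitor, fell from 39.1, 34.8 and 14.8 to 0.82, 6.78 and 5.37 FPKM.

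The rise of the stefins did not take in the whole cluster, and the upstream sequence is shown because related members lie near each other on chromosome 16 and differ in response. Stefins are small cytosolic inhibitors of cysteine proteases, and several copies are found in the mouse genome. The 250 bases before the start of 4 of them, from RefSeq (assembly GRCm38.p6), are printed 5′ to 3′ on the strand of the gene. Stfa3 (chr16:36455393-36455642, minus strand) is the reference and is in lower case. Capitals mark bases of Stfa2 (chr16:36408364-36408613, minus strand), Stfa1 (chr16:36276898-36277147, plus strand) and Cstdc5 (chr16:36367571-36367820, minus strand) that are not equal to Stfa3 in a global alignment.
Stfa3: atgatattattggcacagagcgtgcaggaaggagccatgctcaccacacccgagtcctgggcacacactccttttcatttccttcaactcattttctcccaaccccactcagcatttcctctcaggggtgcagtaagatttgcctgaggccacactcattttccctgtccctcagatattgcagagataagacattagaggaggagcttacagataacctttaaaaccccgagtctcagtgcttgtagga
Stfa2: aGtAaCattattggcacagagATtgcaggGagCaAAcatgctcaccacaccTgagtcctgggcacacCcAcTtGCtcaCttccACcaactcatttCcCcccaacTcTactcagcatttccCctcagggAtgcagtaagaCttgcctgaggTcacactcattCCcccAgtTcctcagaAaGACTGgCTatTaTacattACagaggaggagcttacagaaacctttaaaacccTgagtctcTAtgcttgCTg
Stfa1: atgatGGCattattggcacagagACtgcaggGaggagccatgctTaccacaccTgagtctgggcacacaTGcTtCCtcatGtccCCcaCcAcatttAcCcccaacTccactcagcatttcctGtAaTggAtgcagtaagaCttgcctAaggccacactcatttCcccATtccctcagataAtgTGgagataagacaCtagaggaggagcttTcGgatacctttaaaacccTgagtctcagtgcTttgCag
Cstdc5: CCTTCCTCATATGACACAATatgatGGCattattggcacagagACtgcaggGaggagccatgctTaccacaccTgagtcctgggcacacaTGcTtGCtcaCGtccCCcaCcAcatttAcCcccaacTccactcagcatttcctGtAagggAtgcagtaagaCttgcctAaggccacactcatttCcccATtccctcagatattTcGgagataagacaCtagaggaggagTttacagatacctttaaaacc
Stfa2, which did not move with the others, shared 203 of 247 aligned bases with Stfa3 (82.2%). Stfa1 shared 211 of 246 (85.8%), and Cstdc5 shared 196 of 227 (86.3%) with 46 bases unaligned. Of the members not printed, Csta1, which rose, shared 131 of 160 (81.9%) with 180 bases unaligned. Stfa2l1 and Cstdc4, which were too low to be fitted, shared 206 of 244 (84.4%) and 173 of 243 (71.2%). These are descriptions of the sequence, and their part in the levels was not tested.

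Stfa3 rose from 8.66, 3.8 and 10.6 FPKM in control to 392, 632 and 306 FPKM (log2 fold change 5.71, SE 0.36, limma adjusted p = 0.000168). Cstdc5 rose from 17.9, 6.86 and 28.7 to 799, 1071 and 786 FPKM, and Stfa1 from 3.7, 0.57 and 6.23 to 106, 126 and 82.9 FPKM. In all 3 genes control 2 was the lowest library and DKO 2 the highest. Stfa2, named after its values were seen, stood at 9.41, 8.78 and 7.42 FPKM in control and at 7.23, 10.2 and 3.61 in the libraries labelled DKO, with overlapping groups and a difference of −0.34 (SE 0.29, limma adjusted p = 0.46). Of 9 fitted stefins and cystatins 5 rose, the others being Csta1 and the secreted cystatin Cst3, which rose from 332, 298 and 303 to 430, 468 and 453 FPKM. Csta1, from 14.7, 12.7 and 19.0 to 22.8, 26.4 and 24.6 FPKM, lost its call without control 1 (limma adjusted p = 0.0502) or DKO 2 (0.0571) and under median-ratio scaling (0.0547). Stfa2l1, Cstdc4 and Cstdc6 were too low to be fitted, at most 0.59 FPKM in control and at 0.61 to 4.9 FPKM in the libraries labelled DKO. The stefin genes are so alike that counting could split or move reads between copies, so the value of a single copy is uncertain.

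Promoter windows from 250 bases before to 50 after the start were searched on both strands in the same RefSeq table, which held 10115 of the fitted genes. A repeat of 2 hexamers in the same direction spaced by 3 bases, as bound by the vitamin D receptor with its partner, was searched with AGGTCA as hexamer and with the near forms GGTTCA or GGGTCA or AGTTCA in either place. It occurred in 12 of 27025 genes (0.0444%) and in 1 fitted gene, Cep170, a centrosomal protein gene named here for that match. The match was GGTTCAAGTGGTTCA on the minus strand of chr1:176807293-176807307, 183 bases before the start, all of it in capitals as the matched part. Cep170 stood at 0.89, 1.2 and 1.3 FPKM in control and at 1.97, 1.83 and 1.88 FPKM in the libraries labelled DKO (log2 fold change 0.45, SE 0.13, limma adjusted p = 0.0403). Its call was lost without control 1 (0.14), control 2 (0.0861), DKO 1 (0.0788), DKO 2 (0.0929) or DKO 3 (0.104) by the same test. Shares are of genes with a window. The AP-1 motif TGANTCA was in 8.97% of all genes, 6.87% of the fitted genes, 9.85% of those that rose (174 of 1767) and 9.6% of those that fell (51 of 531). The Lef1 and Tcf motif CTTTGNT was in 20.9% of all genes, 16.5% of fitted genes, 17.4% of those that rose and 16.4% of those that fell. The sterol response core CACNCCAC was in 7.12% of all genes, 7.48% of fitted genes, 8.89% of those that rose and 7.53% of those that fell. It was in 2 of 24 fitted cholesterol genes with a window and in 0 of the 13 that were called. A match is a description of letters and shows no binding.

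Genes of muscle, fat and dermis, which lie under the epidermis, were higher in the libraries labelled DKO, and these values stand beside the results on lipid, immune and matrix genes that follow. Of 18 fitted skeletal muscle genes 17 rose, 7 of which reached 1 FPKM only in the libraries labelled DKO. The summed level of the 23 listed genes with values was 82.1, 67.2 and 109 FPKM in control. In the libraries labelled DKO it was 858, 558 and 275 FPKM, highest in DKO 1 and lowest in DKO 3. Ckm, muscle creatine kinase, rose from 1.32, 1.35 and 1.84 to 65.0, 33.6 and 16.6 FPKM, in the same order. The slow myosin gene Myh7 was at 0 to 0.01 FPKM in every library.

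Fat, vessel and connective tissue genes followed. Of 12 adipocyte genes 10 rose, 2 of which reached 1 FPKM only in the libraries labelled DKO, among the others Adipoq, the hormone adiponectin, from 5.71, 2.89 and 4.01 to 41.7, 27.2 and 25.0 FPKM. Their summed level overlapped between the groups, at 777 to 1190 FPKM in control and 1170 to 1560 FPKM in the libraries labelled DKO. Of 23 dermal fibroblast and collagen genes 15 rose, with sums of 1040 to 1830 and 2040 to 2490 FPKM. Vim, the intermediate filament of mesenchymal cells, rose from 111, 111 and 98.7 to 262, 269 and 233 FPKM. Of 18 smooth muscle and endothelial genes 13 rose, with sums of 131 to 170 and 314 to 345 FPKM. Of 16 dermal papilla genes 1 rose (Sox18) and 1 fell (Notum), and their sums overlapped, at 56.9 to 118 and 76.8 to 122 FPKM. Sox18 lost its call without DKO 1 (limma adjusted p = 0.0585) or DKO 2 (0.0735) and Notum without control 1 (0.12), control 2 (0.132), DKO 2 (0.141) or DKO 3 (0.12). Of 12 red blood cell, nerve and Merkel cell genes Krt8, a simple epithelial keratin, was called (higher), and without DKO 2 it was not (limma adjusted p = 0.0593), while 3 were called without control 3 or DKO 1 and 5 without DKO 3. The mean levels of these lists by library are plotted below with those of follicle, gland and immune cell lists.

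**Figure D2:**
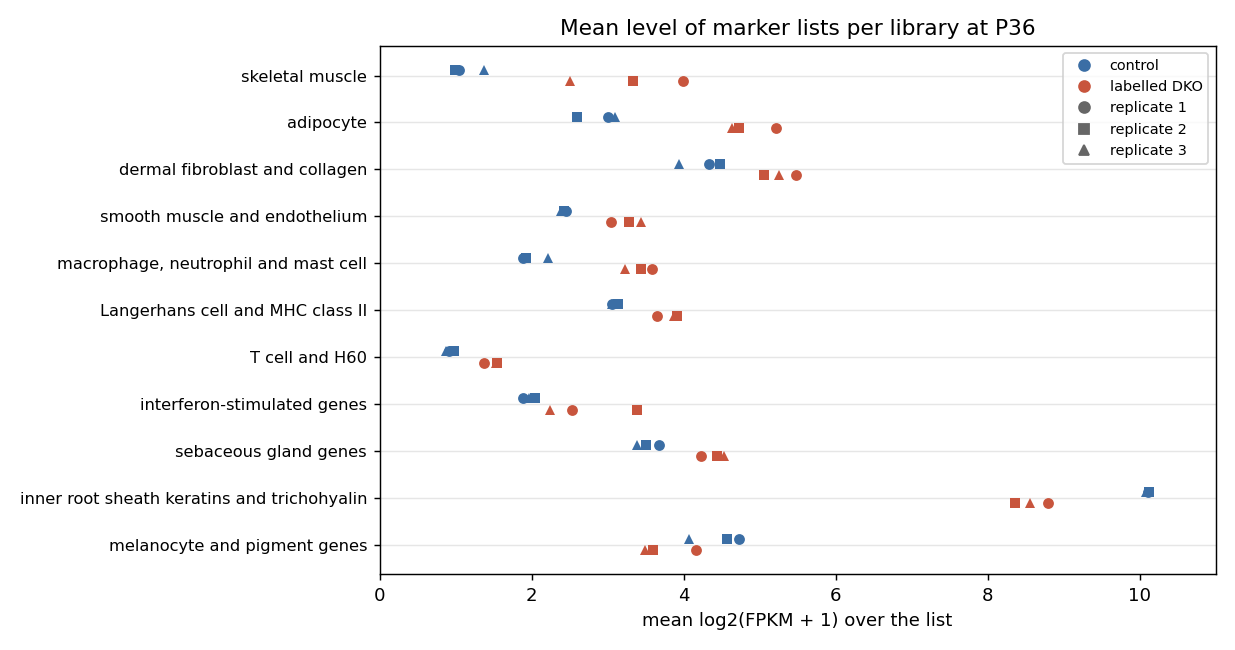
Mean log2(FPKM + 1) over the members with values, fitted or not, of 11 marker lists in each library at P36. Control is in blue and libraries labelled DKO are in red. The muscle list is highest in DKO 1 and lowest in DKO 3 among the libraries labelled DKO, the interferon-stimulated list stands apart in DKO 2, and the inner root sheath list is lower in all 3 libraries labelled DKO, while the melanocyte list overlaps, with DKO 1 above control 3.

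Genes of the growing hair fell. In bulk RNA, fewer cells of a type and less RNA per cell cannot be told apart, which holds for every cell type list here. All 12 fitted genes of the inner root sheath, the layers that mould the hair, fell, with a median of −1.58. Their summed level dropped from 26900, 30700 and 25300 FPKM to 14000, 10600 and 10500 FPKM. Padi1, which converts arginine to citrulline in structural proteins of the sheath, fell from 90.7, 106 and 89.4 to 35.2, 33.3 and 32.5 FPKM (log2 fold change −1.47, SE 0.1, limma adjusted p = 0.000186). Tchhl1, a trichohyalin-like protein, fell from 433, 447 and 280 to 107, 60.4 and 94.1 FPKM (−2.15, SE 0.25, limma adjusted p = 0.00111). Krt26, a keratin of the inner root sheath cuticle, fell from 464, 347 and 399 to 136, 91.9 and 122 FPKM. For each of these genes all libraries labelled DKO lay below all control libraries.

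Of 15 hair shaft keratins 14 fell, with a median of −1.18. Krt32, a cuticle keratin of the shaft, fell from 165, 139 and 126 to 70.5, 38.5 and 61.2 FPKM (log2 fold change −1.36, SE 0.21, limma adjusted p = 0.00357). Krt35, a keratin of the shaft matrix and cuticle, fell from 777, 670 and 519 to 377, 221 and 290 FPKM. Called members numbered 8 without control 1, 7 without DKO 2 and 8 without DKO 3. The keratin-associated proteins, which cross-link the shaft keratins, were lower too: 21 of 36 high-cysteine genes fell, with a median of −1.58, and 6 of 15 high-glycine and tyrosine genes fell, with a median of −1.38, where Krtap16-1 is in both lists. Krtap26-1 fell from 179, 118 and 185 to 69.6, 35.8 and 48.9 FPKM. Krtap31-1 fell from 88.2, 42.0 and 8.47 to 0, 1.1 and 1.37 FPKM, and its control libraries lay far apart. Called high-cysteine members numbered 11 without control 1, 9 without DKO 2 and 10 without DKO 3. Called high-glycine members numbered 1 without control 1 or DKO 3, 2 without DKO 2, 3 without control 3 and 12 without control 2. These families hold near-identical copies, so values of single members are uncertain.

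Keratins of the outer layers of the follicle moved both ways. Of 9 companion and outer root sheath keratins 3 rose and 2 fell, and only 3 were called without control 1, control 2 or DKO 2. Krt75, a companion layer keratin, fell from 385, 430 and 377 to 256, 196 and 163 FPKM. Krt15, found in basal cells and the bulge, stood at 367, 427 and 208 against 165, 126 and 171 FPKM (limma adjusted p = 0.0205), and its call was lost without control 1 (0.0688), control 2 (0.0566) or DKO 2 (0.077). Krt6b and Krt16, keratins of the companion layer and of wounded epidermis, rose instead, Krt6b from 1.51, 0.26 and 6.61 to 72.5, 57.2 and 63.5 FPKM and Krt16 from 76.3, 41.5 and 108 to 343, 462 and 300 FPKM. For both genes all libraries labelled DKO lay above all control libraries. The third that rose was Krt14, whose promoter drives the Cre, and it was not called without control 1, control 2, DKO 1, DKO 2 or DKO 3 (limma adjusted p 0.0706 to 0.132) or under median-ratio scaling (0.103).

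Transcription factors of the hair matrix, the dividing cells at the base of the follicle, were mostly lower. Of 18 fitted members 11 fell and 2 rose (Bcl11b and Irx5), with a median of −0.84. Foxq1, known for its role in the medulla of the hair, fell from 39.2, 48.0 and 46.6 to 18.2, 20.6 and 18.6 FPKM (log2 fold change −1.17, SE 0.11, limma adjusted p = 0.000488). Foxn1, the gene mutated in nude mice, fell from 52.5, 49.3 and 51.9 to 31.1, 23.6 and 27.3 FPKM. Dlx3, a homeobox factor of the matrix, fell from 270, 347 and 292 to 163, 131 and 133 FPKM. The groups did not overlap in any of the 3. Irx5 was not called without DKO 2 (limma adjusted p = 0.0533) or DKO 3 (0.0534).

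Among signalling genes of the follicle, called Wnt, hedgehog and Bmp genes were mostly lower. Of 49 Wnt genes 13 fell and 2 rose, beside 5.32% lower and 18% higher among all fitted genes. Nkd2, an inhibitor that Wnt signalling itself induces, fell from 70.2, 73.4 and 47.6 to 30.7, 19.6 and 21.4 FPKM. The ligand Wnt4 fell from 32.7, 38.1 and 36.0 to 19.4, 23.6 and 23.7 FPKM. Only 7 Wnt genes were called without control 1, and 8 without control 2 or DKO 2. Of 15 hedgehog genes 4 fell and 1 rose, but 1 was called without control 1, control 2, DKO 2 or DKO 3 and 3 without control 3, and under median-ratio scaling 6 fell. Of 28 Bmp and Tgfb genes 7 fell and 3 rose. Bmp2 fell from 11.4, 13.6 and 13.2 to 5.4, 4.36 and 5.65 FPKM, while Tgfbr2, a receptor for transforming growth factor beta, rose from 8.54, 8.56 and 7.87 to 21.5, 24.3 and 29.4 FPKM (log2 fold change 1.47, SE 0.12, limma adjusted p = 0.000474). The rises of Tgfb1, Tgfb3 and Tgfbr2 stand beside those of the fibroblast list, and their part was not tested.

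Of 15 Notch and Eda genes 2 fell (Notch1 and Heyl). Notch1 lost its call without DKO 2 (limma adjusted p = 0.0511), and Heyl without control 2 (0.0696), control 3 (0.0634), DKO 2 (0.0523) or DKO 3 (0.0516). Of 16 Egf receptor family genes 4 rose and 1 fell, and 3 were called without control 1, control 2, DKO 2 or DKO 3 and under median-ratio scaling. The ligand Tgfa fell from 41.5, 51.4 and 44.4 to 26.4, 24.5 and 27.5 FPKM, while Adam17, which sheds these ligands from the membrane, rose from 11.7, 11.6 and 10.6 to 19.1, 20.1 and 20.9 FPKM. Of 24 Fgf, Igf and Pdgf genes 8 rose and 3 fell. Pdgfb, a growth factor for vessel wall cells, rose from 4.72, 4.79 and 4.97 to 12.3, 12.6 and 11.4 FPKM, and Igfbp7, which binds insulin-like growth factors, from 77.1, 88.9 and 96.0 to 248, 292 and 222 FPKM. The 3 that fell were Fgf18, Fgf22 and Fgfr2, of which Fgfr2 was not called without control 1, control 2, DKO 1 or DKO 2 (limma adjusted p 0.0561 to 0.0749).

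Follicle stem cell genes did not move as 1 group. Of 22 members 6 fell and 4 rose, where 5.32% of all fitted genes were called lower and 18% higher. Foxc1, which holds bulge stem cells at rest, fell from 35.1, 40.3 and 32.7 to 19.8, 20.7 and 19.6 FPKM. Cd34, a surface marker of bulge cells that vessels carry too, rose from 18.3, 22.0 and 20.1 to 33.6, 32.5 and 35.2 FPKM. Itga6, an integrin of basal cells, rose from 13.4, 12.9 and 11.98 to 22.9, 29.7 and 36.1 FPKM. In all 3 genes the groups were apart.

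Pigment genes were lower. Of 20 melanocyte genes 8 fell and Rab38 rose, and the summed level dropped from 1110, 941 and 709 FPKM to 593, 389 and 363 FPKM. Gpnmb, a melanosome glycoprotein, fell from 183, 136 and 184 to 65.3, 51.1 and 57.0 FPKM (log2 fold change −1.52, SE 0.15, limma adjusted p = 0.000609). Mitf, the master regulator of melanocytes, fell from 18.0, 18.5 and 13.8 to 11.2, 7.16 and 7.71 FPKM. Called members numbered 5 without control 1, 4 without DKO 2 and 15 without control 3.

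**Figure D3:**
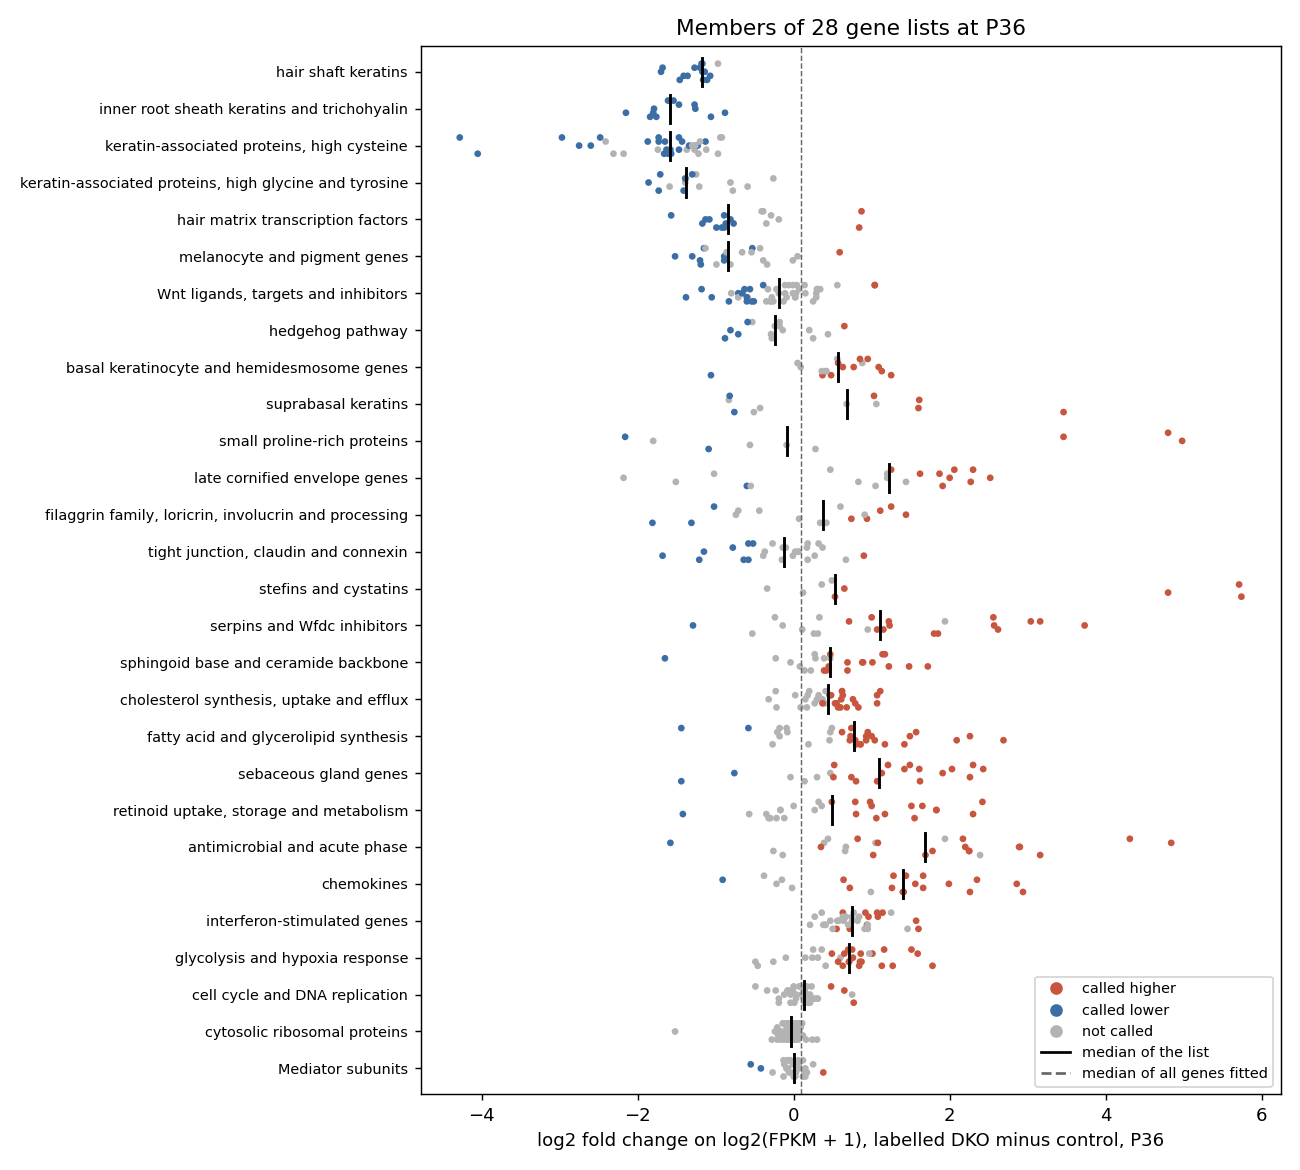
Log2 fold change (libraries labelled DKO minus control, P36) of the fitted members of 28 gene lists, 1 dot per gene, red where called higher, blue where called lower and grey otherwise, with a black line at the list median and a dashed line at the median of all genes, 0.09. The hair shaft, inner root sheath and high-cysteine keratin-associated lists lie below 0, with medians of −1.18, −1.58 and −1.58. The antimicrobial and chemokine lists have medians above it, of 1.69 and 1.4.

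Most called genes that anchor basal keratinocytes were higher. Of 18 basal and hemidesmosome genes 10 rose and 1 fell (Krt15), with a median of 0.57. Called members numbered 7 without control 1, control 2 or DKO 3 and 5 without DKO 2, and under median-ratio scaling 6 rose and 1 fell. Itgb1, the integrin beta 1 chain, rose from 31.1, 31.5 and 30.6 to 60.0, 52.2 and 49.8 FPKM. All libraries labelled DKO lay above all control libraries. Of 11 suprabasal keratins 4 rose and 2 fell (Krt7 and Krt23). Krt1, the first keratin made on leaving the basal layer, rose from 225, 140 and 186 to 1758, 2102 and 2142 FPKM (log2 fold change 3.46, SE 0.18, limma adjusted p = 0.000131). Its partner Krt10 rose less, from 926, 779 and 594 to 1882, 2247 and 2849 FPKM.

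The proteins of the cornified envelope, the cross-linked shell of dead surface cells, moved both ways within families. Of 9 small proline-rich genes 3 rose and 2 fell. The median was −0.09. Sprr2a1 rose from 0.59, 0 and 1.0 to 31.4, 91.9 and 32.1 FPKM and Sprr2a3 from 1.54, 2.92 and 5.18 to 76.8, 268 and 62.0 FPKM, with DKO 2 the highest library in both. These near-identical copies are uncertain one by one. Sprr1a fell from 3199, 2919 and 2884 to 1364, 1589 and 1289 FPKM, and Sprr4 from 244, 103 and 273 to 27.3, 44.4 and 60.6 FPKM. Of 20 late cornified envelope genes 9 rose and Crct1 fell, with a median of 1.22, and 6 were called without DKO 2. Lce1d rose from 38.4, 10.4 and 11.2 to 102, 81.7 and 71.0 FPKM, where control 1 lay well above the other 2 control libraries. Crct1 was not called without control 1, control 2, DKO 2 or DKO 3 (limma adjusted p 0.0735 to 0.104).

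Of 16 filaggrin-type, loricrin and involucrin genes 5 rose and 3 fell. Involucrin (Ivl), an early envelope precursor, fell from 127, 112 and 149 to 48.4, 45.9 and 59.8 FPKM (log2 fold change −1.31, SE 0.14, limma adjusted p = 0.000774). Crnn, cornulin, fell from 460, 374 and 357 to 162, 84.6 and 101 FPKM, while Hal, which makes urocanic acid from histidine, rose from 35.6, 28.8 and 16.7 to 57.7, 52.5 and 60.6 FPKM. Only 5 members were called without DKO 2 and 4 without DKO 3, and under median-ratio scaling 2 rose and 4 fell. Of 13 transglutaminase and scaffold genes 4 rose and 3 fell. Tgm3, the cross-linking enzyme of hair and upper epidermis, fell from 67.0, 80.05 and 81.4 to 34.4, 30.7 and 35.9 FPKM, while Tgm2, the widely expressed tissue enzyme, rose from 5.29, 6.9 and 5.53 to 14.3, 17.3 and 17.2 FPKM. Called members numbered 4 without control 1 or control 2 and 3 without DKO 2, and under median-ratio scaling 1 rose and 4 fell. Of 13 S100 genes 3 rose and 3 fell. S100a3, a calcium-binding protein of the hair cuticle, fell from 3054, 2623 and 2497 to 1407, 864 and 1124 FPKM, and S100a10 rose from 239, 232 and 249 to 366, 406 and 380 FPKM.

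Most called serpin and Wfdc inhibitors were higher, while called kallikrein, membrane protease and Spink genes moved both ways. Of 24 serpin and Wfdc genes 14 rose and Wfdc3 fell, with a median of 1.11, and 5 of the fitted members reached 1 FPKM only in the libraries labelled DKO. Serpinb12, a serpin of stratified epithelia, rose from 2.58, 2.56 and 1.24 to 21.3, 28.1 and 23.4 FPKM (log2 fold change 3.04, SE 0.2, limma adjusted p = 0.000198). Serpinb3a, a member of a family of close copies, rose from 0.4, 0.04 and 0.15 to 13.99, 23.3 and 9.68 FPKM. Of 19 kallikrein, membrane protease and Spink genes 3 rose and 3 fell, beside 18% higher and 5.32% lower among all fitted genes. Tmprss4, a membrane serine protease, rose from 19.6, 15.8 and 14.4 to 53.7, 67.4 and 77.6 FPKM. St14, matriptase, which activates other proteases in the granular layer, fell from 122, 126 and 123 to 83.1, 81.3 and 83.1 FPKM.

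Claudins and connexins were mostly lower among the called junction genes. Of 26 tight junction, claudin and connexin genes 8 fell and Gja4, a vascular connexin, rose. Gjb6, connexin 30, fell from 67.7, 58.5 and 77.2 to 21.3, 20.3 and 19.4 FPKM (log2 fold change −1.68, SE 0.11, limma adjusted p = 0.000226). Gjb2, connexin 26, fell from 528, 584 and 616 to 317, 269 and 200 FPKM, and Cldn4, a claudin of tight junctions, from 232, 227 and 241 to 145, 167 and 155 FPKM. The groups were apart in all 3. Of 15 desmosome genes 3 rose (Dsc3, Dsg1b and Dsg3) and 3 fell (Dsc2, Dsg4 and Pkp3). Dsg3, the basal desmoglein, rose from 20.9, 19.7 and 26.2 to 39.9, 35.7 and 45.6 FPKM, and Pkp3, plakophilin 3, fell from 318, 316 and 293 to 217, 207 and 228 FPKM. Dsc2 was not called without control 1, control 2, DKO 2 or DKO 3 (limma adjusted p 0.108 to 0.145), nor Dsg4 without control 1 (0.0948) or control 2 (0.0834).

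Of 28 transcription factors of differentiation 6 rose and 5 fell, where 18% of all fitted genes were called higher and 5.32% lower. Only 7 were called without DKO 2. Elf5 fell from 40.6, 28.9 and 33.6 to 17.3, 12.2 and 14.1 FPKM, and Ets1 rose from 2.08, 2.44 and 2.07 to 5.0, 4.99 and 4.72 FPKM. Under median-ratio scaling 3 of them rose and 8 fell. Of 21 genes of calcium sensing and entry 7 rose and 1 fell (Trpv3). Calm4, a calmodulin-like protein of differentiated keratinocytes, rose from 400, 206 and 286 to 854, 1013 and 1027 FPKM, and Calm5 from 13.3, 11.1 and 7.22 to 24.0, 30.5 and 37.7 FPKM. Pvalb, also in this list, is a muscle protein and followed the muscle genes, at 62.2, 32.5 and 10.3 FPKM in DKO 1, 2 and 3. Only 3 members were called without control 1, DKO 2 or DKO 3, 4 without control 2 and 5 without control 3, and 3 rose and 2 fell under median-ratio scaling. Trpv3 was not called without control 1, control 2, DKO 2 or DKO 3 (limma adjusted p 0.0706 to 0.135). Of 22 ion pumps and channels 10 rose and 2 fell (Atp12a and Scnn1b), and 6 were called without DKO 3, while under median-ratio scaling 6 rose and 3 fell. Scnn1b was not called without control 1, control 2, DKO 2 or DKO 3 (limma adjusted p 0.102 to 0.136). Slc12a2, a sodium, potassium and chloride cotransporter, rose from 4.95, 4.46 and 6.3 to 10.5, 10.5 and 12.5 FPKM.

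Most called genes for the ceramides, cholesterol and fatty acids of the skin barrier were higher. Among all fitted genes 18% were called higher and 5.32% lower. Of 23 acylceramide and lipid envelope genes 10 rose, and 6 were called without DKO 2 or DKO 3, while under median-ratio scaling 6 rose and 1 fell. Elovl4, which makes the very long acyl chains of these ceramides, rose from 117, 83.0 and 95.8 to 219, 354 and 368 FPKM. Of 24 sphingoid base and ceramide genes 14 rose and 1 fell (Sptssb). Sptssa, the counterpart of Sptssb as a small subunit of serine palmitoyltransferase, rose from 63.0, 58.8 and 65.6 to 110, 124 and 116 FPKM (log2 fold change 0.89, SE 0.09, limma adjusted p = 0.000677). Fa2h, which hydroxylates the fatty acid of ceramides, rose from 34.0, 37.7 and 25.3 to 73.2, 148 and 114 FPKM. Of 21 glucosylceramide, sphingomyelin and phospholipase genes 6 rose and 1 fell (Pla2g4b), with 4 called without DKO 2 and 3 without DKO 3, and 2 rose and 2 fell under median-ratio scaling.

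Of 34 cholesterol genes 17 rose, with a median of 0.44. Dhcr7, the enzyme of the last step to cholesterol, rose from 31.8, 33.0 and 28.4 to 64.4, 67.0 and 73.0 FPKM (log2 fold change 1.11, SE 0.09, limma adjusted p = 0.000474). Msmo1, a sterol oxidase of the middle of the pathway, rose from 77.3, 58.1 and 77.1 to 159, 135 and 153 FPKM. Among 32 fitted genes that make fatty acids and glycerolipids, 20 were called higher and 2 lower (Scd3 and Acsl3), and the median was 0.77. Thrsp, a nuclear protein that goes with lipid synthesis in fat and sebaceous tissue, rose from 2.58, 3.63 and 2.38 to 26.1, 19.1 and 26.8 FPKM (2.69, SE 0.17, limma adjusted p = 0.000168). Dgat2, which makes triglyceride, rose from 59.4, 56.1 and 46.4 to 105, 109 and 122 FPKM. Of 25 genes of fatty acid oxidation 7 rose, and 4 were called without control 1 or control 3 and 3 without DKO 2 or DKO 3, and 4 under median-ratio scaling. The adipocyte genes named above rose in the same libraries, and their part in these results was not tested.

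Of 22 sebaceous gland genes 16 rose and 2 fell (Scd3 and Krt7), with a median of 1.1. Their summed level was 989, 844 and 828 FPKM in control and 1590, 2100 and 2010 FPKM in the libraries labelled DKO. Awat2, a wax ester synthase of sebocytes, rose from 2.41, 1.84 and 2.06 to 15.7, 14.2 and 17.2 FPKM (log2 fold change 2.43, SE 0.12, limma adjusted p = 0.000131). Pparg, the nuclear receptor of both sebocytes and adipocytes, rose from 2.07, 2.59 and 2.47 to 12.4, 12.1 and 13.8 FPKM (2.03, SE 0.11, limma adjusted p = 0.000168). The adipocyte list was higher in the same libraries, and its part in these results was not tested. Of 15 utricle and infundibulum genes 2 rose (Krt79 and Teddm3) and 1 fell (Klk10), a share close to that of all genes, and Klk10 kept its call only without control 2, with limma adjusted p of 0.0707 to 0.121 without any other library. Krt79, a keratin of the upper follicle and gland duct, rose from 227, 139 and 119 to 406, 503 and 532 FPKM.

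Most called retinoid genes were higher. Of 27 members 14 rose and 1 fell. The one that fell was Stra6, the cell's receptor for retinol-binding protein, from 38.1, 41.7 and 39.2 to 13.8, 15.2 and 13.8 FPKM (log2 fold change −1.42, SE 0.09, limma adjusted p = 0.000168). Rarres2, the secreted protein chemerin, rose from 14.9, 17.7 and 15.0 to 92.5, 89.8 and 85.7 FPKM (2.42, SE 0.1, limma adjusted p = 8.48e-05). Rbp2, a cellular retinol-binding protein, rose from 9.54, 10.96 and 16.3 to 51.1, 77.9 and 62.5 FPKM. In the same libraries 10 of 12 adipocyte genes rose, and their part in these retinoid results was not tested. Of 23 other nuclear receptors 4 rose, a share close to that of all genes: Pparg, Nr1h3, Rora and Nr3c1. Nr1h3, the sterol-sensing liver X receptor alpha, rose from 1.12, 1.34 and 1.28 to 4.8, 5.47 and 4.7 FPKM. Nr3c1, the glucocorticoid receptor (log2 fold change 0.33), lost its call without any 1 of the 6 libraries, with limma adjusted p between 0.0732 without DKO 2 and 0.122 without control 1.

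Antimicrobial and inflammatory genes rose. Of 25 antimicrobial and acute phase genes 15 rose and 1 fell (S100a7a), with a median of 1.69, and 3 of the fitted ones reached 1 FPKM only in the libraries labelled DKO. Lyz2, the lysozyme of macrophages and neutrophils, rose from 16.4, 20.4 and 20.7 to 194, 122 and 135 FPKM (log2 fold change 2.89, SE 0.18, limma adjusted p = 0.000168). Cfb, complement factor B, rose from 2.12, 2.55 and 2.83 to 15.7, 18.3 and 11.8 FPKM. Of 17 interleukin 1 family genes 9 rose and 1 fell (Il1f10). Il33, an alarm signal of barrier cells, rose from 1.99, 1.65 and 1.69 to 7.37, 7.38 and 9.06 FPKM. Of 21 chemokines 15 rose and 1 fell (Ccl27a, a keratinocyte chemokine for T cells), with a median of 1.4, and 4 of the fitted ones reached 1 FPKM only in the libraries labelled DKO. Cxcl5, which attracts neutrophils, rose from 0.2, 0.1 and 0.1 to 14.3, 5.23 and 5.9 FPKM, and Ccl2, which attracts monocytes, from 0.86, 0.64 and 1.51 to 13.1, 7.7 and 7.31 FPKM. In both, DKO 1 was the highest library. Ccl27a was not called without control 1, control 3, DKO 1 or DKO 3 (limma adjusted p 0.0581 to 0.106). Of 22 cytokine and receptor genes 16 rose, and 10 were called without DKO 2 or DKO 3. Socs3, a feedback inhibitor induced by cytokines, rose from 9.94, 8.94 and 8.58 to 25.8, 24.6 and 27.6 FPKM.

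Markers of immune cells were higher in the same libraries. Of 23 macrophage, neutrophil and mast cell genes 20 rose and Kit fell, with a median of 1.88, and 4 of the fitted ones reached 1 FPKM only in the libraries labelled DKO. The summed level was 161, 167 and 262 FPKM in control and 828, 709 and 630 FPKM in the libraries labelled DKO. Mpeg1, a pore-forming protein of macrophages, rose from 0.6, 0.95 and 0.83 to 8.86, 7.29 and 5.26 FPKM. Kit, a growth factor receptor of mast cells and melanocytes, was not called without control 1, control 2, DKO 2 or DKO 3 (limma adjusted p 0.072 to 0.108). The mast cell proteases Cma1, Mcpt4, Tpsb2 and Cpa3 all rose, by 2.17 to 2.34 on the log2 scale. The neutrophil genes Ly6g, Elane and Mpo were too low to be fitted, at most 0.22 FPKM in any library. Elane and Mpo overlapped between the groups, while Ly6g was at 0 in control and at 0.12, 0.17 and 0.12 FPKM in the libraries labelled DKO. Camp, of the antimicrobial list and also not fitted, stood at 0.49, 0.39 and 0.2 against 2.16, 1.87 and 0.97 FPKM. Values this low do not settle whether neutrophils differed. Among 15 genes of Langerhans cells and of antigen presentation 10 rose, with sums of 462 to 584 and 837 to 981 FPKM, and 3 of the fitted ones reached 1 FPKM only in the libraries labelled DKO. Cd207, langerin, which defines Langerhans cells, was among those not called, at 3.8, 3.27 and 4.21 FPKM in control and 3.78, 6.89 and 6.1 FPKM in the libraries labelled DKO (limma adjusted p = 0.147, and 0.0154 without DKO 1), while H2-Ab1, a class II chain, rose from 42.4, 52.7 and 56.5 to 130, 143 and 116 FPKM. Of 12 T cell genes 7 rose, with sums of 46.8 to 56.9 and 158 to 166 FPKM. H60c, a ligand on keratinocytes for the receptor NKG2D, rose from 1.82, 2.52 and 2.18 to 17.2, 17.5 and 21.7 FPKM (log2 fold change 2.64, SE 0.13, limma adjusted p = 0.000131). Cd8a and Foxp3 were at most at 0.3 FPKM. The muscle, fat and dermal lists above rose in the same libraries, and their part in these results was not tested.

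Interferon-stimulated genes were highest in DKO 2. Of 35 members 11 rose, with a median of 0.75 and sums of 187, 223 and 221 FPKM in control and 374, 838 and 266 FPKM in the libraries labelled DKO. Oas2, a sensor of double-stranded RNA, rose from 0.76, 1.17 and 0.78 to 4.68, 8.3 and 2.39 FPKM. Irf1, an interferon-gamma target, was more even, from 5.43, 5.14 and 4.45 to 10.3, 10.9 and 9.88 FPKM. Called members numbered 4 without control 1, 6 without control 2, 7 without control 3, 18 without DKO 3 and 7 under median-ratio scaling. Of the fitted members 4 reached 1 FPKM only in the libraries labelled DKO. Of 38 proteasome subunits 5 rose, a smaller share than the 18% of all genes. They were the 3 immunoproteasome subunits Psmb8, Psmb9 and Psmb10 and the activator subunits Psme1 and Psme2. Psmb9 rose from 7.16, 11.4 and 9.89 to 25.0, 35.8 and 20.7 FPKM, again highest in DKO 2. Only 3 proteasome subunits were called under median-ratio scaling and without control 1 or DKO 2, and Psme1 lost its call without these libraries (limma adjusted p = 0.0844 and 0.0597) and without control 2 (0.0579) or DKO 3 (0.0655). Psmb10 was not called without control 1, control 3, DKO 1 or DKO 2 (limma adjusted p 0.0612 to 0.0798).

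Wound and matrix genes rose. Of 24 wound and hyperproliferation genes 16 rose and 3 fell (Gjb6, Gjb2 and Arg1), and 4 of the fitted ones reached 1 FPKM only in the libraries labelled DKO. Arg1 was not called without DKO 2 (limma adjusted p = 0.0515). Of 21 matrix metalloproteinases and Timps 14 rose, and 3 of the fitted ones, Mmp9 among them, reached 1 FPKM only in the libraries labelled DKO. Mmp9, a gelatinase, rose from 0.58, 0.63 and 0.52 to 14.3, 12.2 and 8.17 FPKM (log2 fold change 2.96, SE 0.19, limma adjusted p = 0.000168). Mmp3, stromelysin 1, rose from 2.81, 3.29 and 2.34 to 8.23, 7.93 and 7.58 FPKM. Of 41 oxidative stress and Nrf2 target genes 16 rose and 3 fell (Mt4, Hmox1 and G6pdx). Gpx1, a glutathione peroxidase, rose from 118, 120 and 127 to 218, 253 and 223 FPKM, and Akr1b8, an aldo-keto reductase, from 3.3, 1.86 and 2.57 to 11.5, 9.83 and 8.78 FPKM. Of 28 AP-1 and immediate early genes 3 rose and 3 fell, where 18% of all fitted genes were called higher and 5.32% lower. Called members numbered 3 without control 1 or control 2 and 2 without DKO 2, and under median-ratio scaling 2 rose and 6 fell. Dusp2, a phosphatase of mitogen-activated kinases, fell from 46.5, 47.3 and 63.4 to 22.3, 19.9 and 21.6 FPKM. Of 29 heat shock and chaperone genes 1 rose (Xbp1) and 1 fell (Hspa2). Xbp1 lost its call without control 1 (limma adjusted p = 0.0883), control 2 (0.0724), DKO 2 (0.0787) or DKO 3 (0.0685), and Hspa2 without DKO 3 (0.0529).

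Glycolysis genes rose, and few genes of the respiratory chain, the ribosome or the cell cycle were called. Of 32 glycolysis and hypoxia genes 20 rose, with a median of 0.71. Ldha, lactate dehydrogenase A, rose from 180, 193 and 229 to 352, 369 and 365 FPKM (log2 fold change 0.85, SE 0.11, limma adjusted p = 0.00171). Tpi1, triosephosphate isomerase, rose from 102, 112 and 113 to 200, 200 and 186 FPKM. Eno3 and Pgam2, also in this list, are muscle isoforms. Of 77 respiratory chain genes 5 rose (Cox8b, Cox6a2, Sdhd, Ndufa1 and Ndufa4), of which Cox8b and Cox6a2 are muscle isoforms, and 3 were called without control 1, control 2 or DKO 2 but 20 without control 3, and under median-ratio scaling 3 rose and 1 fell. At an unadjusted limma p below 0.05, 24 of the 77 were higher and 0 lower. Their median was 0.21, and 0.07 under median-ratio scaling. Ndufa4 lost its call without control 1 (limma adjusted p = 0.0574), control 2 (0.0504) or DKO 2 (0.0636), and Ndufa1 without any 1 library other than control 3 (0.0595 to 0.123). Of 79 cytosolic ribosomal protein genes none passed limma's adjusted threshold and 0 had an unadjusted p below 0.05, with a median of −0.04. Of 43 cell cycle and replication genes 3 rose (Ccnd3, Cdk6 and Cdkn2b), fewer than among all genes, and 5 were called without control 2. Under median-ratio scaling 2 of them rose and 2 fell. Ccnd3, cyclin D3, rose from 18.5, 28.7 and 24.8 to 39.1, 45.6 and 38.5 FPKM. Cdk6 lost its call without control 1 (limma adjusted p = 0.0824), control 3 (0.0651), DKO 2 (0.0893) or DKO 3 (0.0618). Of 22 clock genes 3 rose (Rora, Clock and Ciart) and 2 fell (Nfil3 and Csnk1e), a share close to that of all genes. Clock rose from 2.53, 2.87 and 2.49 to 4.53, 4.32 and 4.91 FPKM, and Nfil3 fell from 55.7, 63.8 and 59.2 to 32.7, 36.8 and 34.7 FPKM. Csnk1e was not called without any 1 library other than DKO 1 (limma adjusted p 0.0687 to 0.118).

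Vdr, Med1 and the 12 largest changes in each direction were set against the same genotypes at 6 months, with the difference of the DKO effect (6 months minus P36) tested in 1 limma fit of the 12 libraries. In that fit 34.9% of 13280 genes passed. Of the 26 genes 23 were in both tables and 8 passed, each with a smaller or opposite effect at 6 months. That share is like that of all genes, and since all but Vdr and Med1 were chosen as the largest changes at P36, the choice itself favours smaller effects at the other age. Levels are compared only within an age, since the tables were made separately. For Stfa3 the log2 fold change was 6.49 at 6 months and 5.71 at P36 (difference 0.78, SE 0.69, limma adjusted p = 0.401). The difference was −0.02 (SE 0.23) for Vdr and 0.29 (SE 0.16, limma adjusted p = 0.18) for Med1, and for Med1 it passed without control 6mo replicate 1 (0.41, limma adjusted p = 0.0422).

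Sprr4 and Atp12a turned in direction. Sprr4, which fell at P36, stood at 29.9, 18.1 and 12.7 FPKM in control and 389, 300 and 507 FPKM in the libraries labelled DKO at 6 months, a log2 fold change of 4.28 against −2.16 (difference 6.44, SE 0.57, limma adjusted p = 5.06e-05). Atp12a stood at 8.66, 9.24 and 8.64 against 33.1, 25.4 and 19.9 FPKM at 6 months, 1.43 against −2.38 (difference 3.82, SE 0.62, limma adjusted p = 0.0011). The hair genes Tchhl1, Krtap4-13 and Krtap12-1 were near 0 in both genotypes at 6 months, at most 1.28 FPKM, so that their difference between ages restates the fall at P36. For the muscle genes Tnnt3 and Pvalb the log2 fold changes at 6 months were −0.29 and −0.46 against 4.21 and 4.12 at P36. At 6 months DKO 3 stood apart for these and for Hp, with 28.4, 11.1 and 31.1 FPKM against at most 3.45 FPKM in DKO 1 and DKO 2. The call for Tnnt3 was lost in 8 and that for Hp in 7 of the 12 fits that left out 1 library.

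**Figure D4:**
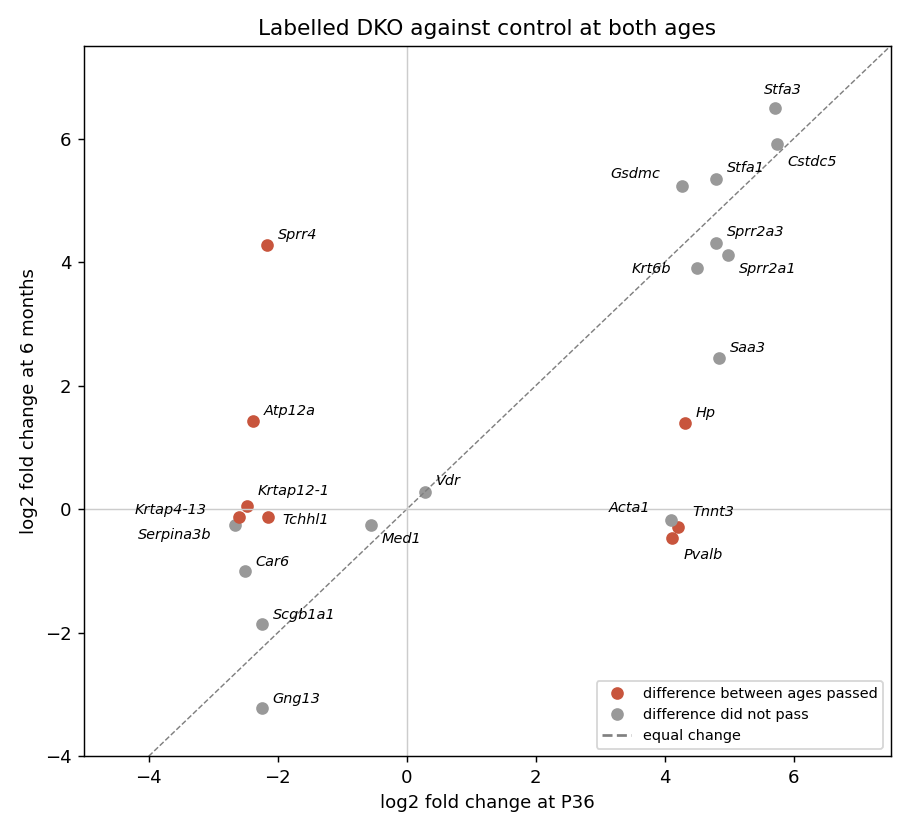
Log2 fold change (libraries labelled DKO minus control) at P36 on the horizontal axis and at 6 months on the vertical axis for the 23 genes compared, red where the difference between ages passed. Sprr4 and Atp12a lie on opposite sides of 0 at the 2 ages, and the stefins lie near the diagonal.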

How the data were processed

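The deposited tables hold 1 row per gene with the FPKM of each library, and the authors' log2 ratios and q-values of their own comparison, which per the file headers stand beside the FPKM and enter no result given here. The authors' tools were HISAT2 2.1.0 and RSEM 1.2.8 per the submitters' processing notes, where GRCh38 and hg38, which are human builds, are given although the samples are mouse. Read counts are not given, so the depth is unknown. The age of a table was taken from the table's name alone. Gene identifiers were matched to RefSeq symbols (GRCm38.p6) for 19343 of 19392 genes, and 49 stayed without a symbol.

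FPKM of at least 1 in at least 3 of the 6 libraries was required, and log2(FPKM + 1) was fitted with limma 3.58.1 in R 4.3.3 (trend on intensity, Benjamini-Hochberg adjustment over all fitted genes, threshold 0.05). The fit was also run on simulated normal values with the fitted spread. That checks its working and cannot show how well the model suits these data. The groups are those of the labels. The 2 ages entered 1 fit with an interaction term for the difference of effects. Alternatives changed the pseudocount, the filter, the scaling, the limma options, the replicate block and the libraries, 1 at a time. Genes named are Vdr, Med1, the 12 called genes of largest fold change on either side (mean over the libraries 1 FPKM or more, no overlap of the groups), up to 4 called genes of each of 67 lists with the smallest adjusted p (2 where no gene was called), and the members of small counts. Rxra, Cyp24a1, Stfa2, the low stefins, Cep170, Cd207, Camp and marker genes near 0 were named after their values were seen. The members and lists were chosen with earlier results of these data known. Some genes that meet this rule are not reported here.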

Additional observations from a re-analysis of the deposited data

Results flagged for a closer look

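For 8 of the 23 genes compared, the DKO effect differed between 6 months and P36 by limma's interaction test, a share like the 34.9% of all genes that passed it. The genes other than Vdr and Med1 were chosen for large changes at P36, which favours smaller effects at 6 months. The difference (6 months minus P36, log2 scale) was 6.44 for Sprr4, 3.82 for Atp12a, 2.53 for Krtap12-1 and −4.58 for Pvalb, and these 4 passed in every setting run. It was 2.46 for Krtap4-13 and 2.03 for Tchhl1, which did not pass with a pseudocount of 0.1 (limma adjusted p = 0.0611 and 0.106). Krtap12-1, Krtap4-13 and Tchhl1 were at or near 0 FPKM in both genotypes at 6 months, so their differences restate the fall at P36. It was −2.91 for Hp and −4.5 for Tnnt3. Hp did not pass with a pseudocount of 0.1 (limma adjusted p = 0.0625), nor without control P36 replicate 2 (0.0725), DKO P36 replicate 1 (0.0701) or 2 (0.0536), control 6mo replicate 2 (0.0575) or 3 (0.0665), or DKO 6mo replicate 1 (0.0744) or 2 (0.0825). Tnnt3 did not pass in 8 of the fits that left out 1 library (limma adjusted p 0.0542 to 0.0672). Without DKO 6mo replicate 3, which had the highest Tnnt3, Pvalb and Hp values at that age, the differences of Saa3 (−3.51, limma adjusted p = 0.00115), Acta1 (−5.64, 0.00341), Gsdmc (1.38, 0.00463) and Serpina3b (3.15, 0.00849) passed as well.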

How the results depend on the processing

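The 2949 calls became 2950 with a pseudocount of 0.1, 3110 without a filter, 2071 with a filter at 5 FPKM, 2525 with totals that leave out keratin and envelope genes, 2894 without a trend, 3625 with array weights and 2836 in the fit of all 12 libraries. Lower calls numbered 1111 under median-ratio scaling. Leaving out 1 library gave 1974 to 2830 calls, 1588 to 2133 of them higher and 386 to 716 lower, and 3625 to 4873 calls for the difference between ages. With the replicate number as a block there were 2607 calls at P36, and 4223 instead of 4631 for the difference between ages. The labels do not say whether the replicate numbers pair the libraries. Deviations from the group means of control and DKO libraries with the same number correlated at 0.13, −0.06 and −0.12. Control 3 with DKO 2 gave 0.21. With 3 libraries in a group, such values cannot decide whether there is a pairing. Of the 287 genes examined by name, 278 were called and 221 kept their call in every setting, and 0 reversed by limma in any of 4561 gene and setting pairs. Vdr passed with array weights (0.28, limma adjusted p = 0.0437, up to 0.32 in other settings), and Med1 was lower in every setting run (limma adjusted p 0.00262 to 0.0352). Low genes near 1 FPKM are limited by depth, which is unknown.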
